A study of Mus musculus with 29 samples.

Results

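The 40 genes described here encode nucleolar, RNA polymerase I and ribosome assembly proteins of the mouse, together with 2 enzymes of polyamine synthesis. They were chosen by gene symbol, from a list of genes of ribosome production and Myc targets of that kind, and all 40 were found among the 38924 gene identifiers of the deposited count table. By role, 6 act in RNA polymerase I transcription, 4 in box C/D particles, 5 in or with box H/ACA particles, 12 in assembly of the small subunit, 10 in assembly of the large subunit, 1 is a nucleolar chaperone and 2 make polyamines. PolyA RNA from bone marrow of C57BL/6 mice had been sequenced as 29 bulk libraries of long-term haematopoietic stem cells (LT-HSC), short-term haematopoietic stem cells (ST-HSC) and the multipotent progenitors MPP3 and MPP4. The groups were 3 Dnmt3a-mutant and 4 control LT-HSC libraries, 4 mutant and 3 control ST-HSC, 4 mutant and 3 control MPP3, and 4 mutant and 4 control MPP4. All came from young mice 6 weeks after pIpC, a synthetic double-stranded RNA, which the controls had received too. The sources used here do not name the mutant allele or the driver of any recombinase. Whether replicates of a group are separate animals is not stated in the labels, and p-values therefore measure the spread between these libraries alone, which may be technical. Each description also holds 1 of 8 numbers that recur across populations, and the labels do not say what a number marks.

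A ribosome begins in the nucleolus, where RNA polymerase I transcribes one long precursor of most ribosomal RNAs. Small nucleolar RNAs (snoRNAs) guide its chemical modification, box C/D particles adding methyl groups to riboses and box H/ACA particles converting uridine to pseudouridine, while assembly factors cut and fold the precursor into a small and a large subunit. Many genes of this process are known targets of the transcription factor Myc, and blood stem cells are known for a low rate of protein synthesis relative to more committed progenitors.

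Myc and its partner Max bind the letters CACGTG, an E-box, and the promoter windows of the members were searched for them. Windows of 300 bases, from 250 bases before to 50 bases after an annotated start, were taken from RefSeq on GRCm38.p6 for 36 of the 40 members. Fbl, Rrp12, Bop1 and Srm were not matched. The letters CACGTG, which read the same on both strands, stood in a window of 9 members (25.0% of 36), against 8.09% of 27025 genes with a window and 11.3% of the 11120 of those that were tested here. A second palindrome of 10 letters that was searched matched 0 members and 0.525% of all genes. A match describes the letters and shows no binding. The members were chosen in part as Myc targets, so their share with this motif is not independent of the choice. The 9 genes with a match were 5 of the 11 matched small-subunit assembly genes, 2 of the 9 matched large-subunit genes and 2 of the 6 polymerase I genes. Runs of 30 bases around each match are shown, because they carry the sequence feature that these 9 members share. Capitals mark the E-box, and each run is written on the strand of its gene.
Nop2, chr6:125131811-125131840, plus strand: gtgtccctggatCACGTGtgttccggtgcc
Utp4, chr8:106893643-106893672, plus strand: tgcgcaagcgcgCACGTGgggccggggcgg
Ltv1, chr10:13193092-13193121, minus strand: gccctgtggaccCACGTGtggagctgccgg
Utp20, chr10:88826765-88826794, minus strand: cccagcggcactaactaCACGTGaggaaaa
Pes1, chr11:3963965-3963994, plus strand: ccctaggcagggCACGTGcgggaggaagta
Mybbp1a, chr11:72441347-72441376, plus strand: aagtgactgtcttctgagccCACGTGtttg
Tsr1, chr11:74898092-74898121, plus strand: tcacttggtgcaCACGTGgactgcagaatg
Rrn3, upstream match, chr16:13780472-13780501, plus strand: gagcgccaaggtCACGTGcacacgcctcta
Rrn3, match nearer the start, chr16:13780639-13780668, plus strand: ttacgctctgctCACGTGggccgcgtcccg
Wdr43, chr17:71616220-71616249, plus strand: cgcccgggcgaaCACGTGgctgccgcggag
Rrn3, which encodes the factor that brings RNA polymerase I to its promoter, was the member with 2 matches, their first bases at -215 and -48 from the start. In Nop2, a ribosomal RNA methyltransferase gene, the match began at -60. In the other 7 members it lay 3 to 41 bases past the start.

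Another shared feature is that some members carry snoRNA genes in their introns. Of the 40 members, 8 (20%) had at least 1 snoRNA gene inside them on the same strand, against 1.159% of 21226 protein-coding genes in the table. Nop56 held 5, Nop58 4, and Ncl, Gnl3 and Wdr43 3 each, while Tsr1 held 2 and Dkc1 and Odc1 held 1 each. These are small RNAs without a polyA tail, so the values below are those of the host genes. The sources used here do not say how strand was treated in counting. For 18 of the 40 members (Polr1a, Mybbp1a, Nop56, Rrp9, Dkc1, Nhp2, Wdr43, Heatr1, Nop14, Tsr1, Bysl, Bop1, Pes1, Wdr12, Gnl3, Gtpbp4, Noc2l and Rrp1b), an exon of another gene overlaps on the opposite strand. If strand was not used, reads from the overlapping stretch cannot be told apart.

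Library totals ran from 6133994 to 10374672 counts, of which the 40 members made up 0.253% to 0.441%, and the lowest count of any member in any library was 24. Levels are given as CPM, the count scaled to a common library size, with sizes adjusted by edgeR. Dnmt3a itself had 120 to 137 CPM in mutant LT-HSC and 82.0 to 167 CPM in control LT-HSC, so its level did not separate the genotypes, and with the allele unknown it does not check the labels. Apart from ST-HSC, which has no single defining gene, 1 marker is given for each population. Slamf1 had 31.1 to 54.2 CPM in mutant and 14.2 to 29.8 CPM in control LT-HSC, with no overlap. Mpo had 3583 to 9612 CPM in mutant and 5519 to 7928 CPM in control MPP3. Flt3 had 409 to 460 CPM in mutant and 379 to 460 CPM in control MPP4. In the libraries of both genotypes it had 29.4 to 71.7 CPM in LT-HSC, 109 to 208 CPM in ST-HSC and 52.5 to 115 CPM in MPP3. Of 12 LT-HSC genes, however, 7 were higher and 5 lower in control ST-HSC than in control LT-HSC (median 0.21). In mutant cells 4 were higher and 8 lower in ST-HSC (median -0.16). Against control LT-HSC, 11 of the 12 were lower in control MPP3 and 9 in control MPP4. Between genotypes, 11 of the 12 were higher in mutant than in control LT-HSC (median 0.58), and 0 passed in edgeR. Mutant ST-HSC replicate 2 stood apart with 406 CPM of Slamf1, against 0.777 to 1.83 CPM in the other mutant ST-HSC libraries, and with mutant MPP3 replicate 1 it had the fewest genes with a count (14802 and 14302, against up to 17905). The neutrophil gene S100a8 had 2260, 584, 349 and 3.67 CPM in the control LT-HSC libraries, against 17.2, 67.3 and 5.84 CPM in mutant LT-HSC. Summed over 15 neutrophil genes, levels were 94.6 to 484 CPM in mutant and 75.3 to 13360 CPM in control LT-HSC, and over 14 erythroid genes 901 to 1203 CPM in mutant and 956 to 28520 CPM in control LT-HSC. Genes of antibody-secreting cells summed to 4790 to 38780 CPM in mutant and 4055 to 19130 CPM in control MPP3. In bulk RNA of this kind, fewer cells of a type and less RNA per cell cannot be told apart.

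All 40 members were expressed in every group. Per kilobase of transcript, the highest mean levels over the 29 libraries belonged to Nop56, a core protein of box C/D particles, at 158 CPM per kilobase, and to Ncl (nucleolin, a nucleolar RNA chaperone), at 97.0 CPM per kilobase. Odc1, the enzyme that makes putrescine, had 74.8, Nop58, the partner of Nop56, had 72.2, and Fbl (fibrillarin, the ribose methyltransferase) had 60.2 CPM per kilobase. The lowest were Wdr12, a large-subunit assembly factor, at 4.97, and Rrp12, a small-subunit export factor, at 3.96 CPM per kilobase. This order depends on the transcript length used, which was 10012 bases for Wdr12 and 8202 bases for Ncl. Without division by length, Ncl had the highest mean, at 795 CPM, and Nop56 had 297 CPM. Wdr12 then had 49.8 CPM, and the lowest mean was that of Rrp9, at 9.87 CPM. Within groups, the standard deviation of log2 CPM ran from 0.223 for Nop58 to 0.680 for Tsr1, a factor of late small-subunit maturation, and the spread of Tsr1 includes 4.51 CPM in mutant ST-HSC replicate 2. Members deviated from their group means together: over the 29 libraries, the mean pairwise correlation of these deviations was 0.122 among members and 0.0057 among all genes tested, so the 40 values of a library are not independent of one another. Mutant MPP3 replicate 1 had the highest level of 14 members and mutant MPP4 replicate 3 of 7, whereas control ST-HSC replicate 3 had the lowest level of 10.

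**Figure D1:**
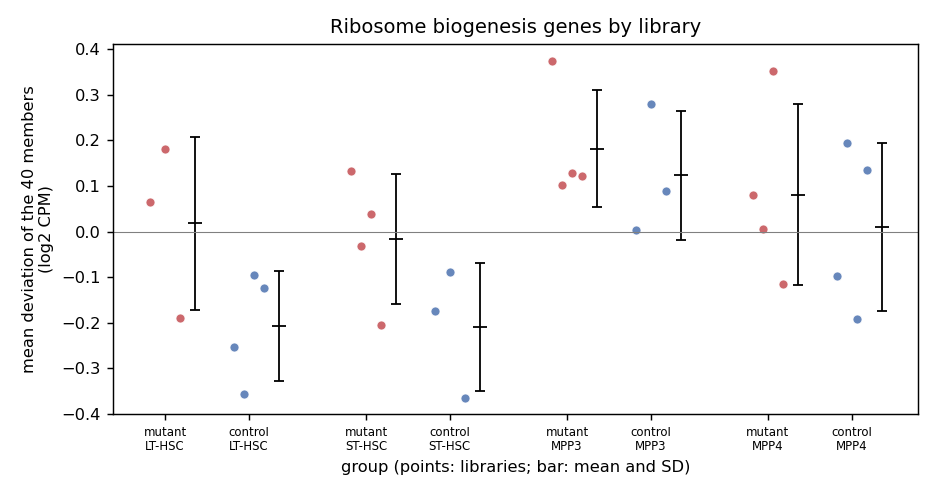
Mean deviation of log2 CPM from each member's mean over the 29 libraries, averaged over the 40 members, for each library (points) with the group mean and SD (bars), mutant left of control in each population. Group means were highest in mutant MPP3 (0.18) and lowest in control ST-HSC and control LT-HSC (-0.21 each), and the mutant and control ranges overlapped in each population.

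As a mean over the 40 members, expression relative to the average library was 0.02 ± 0.19 log2 units (SD, n = 3) in mutant LT-HSC and -0.21 ± 0.12 (SD, n = 4) in control LT-HSC. It was -0.02 ± 0.14 (n = 4) in mutant and -0.21 ± 0.14 (n = 3) in control ST-HSC. In MPP3 it was 0.18 ± 0.13 (n = 4) in mutant and 0.12 ± 0.14 (n = 3) in control, and in MPP4 0.08 ± 0.20 (n = 4) in mutant and 0.01 ± 0.18 (n = 4) in control. The 4 mutant group means were thus above the control ones, but libraries of the 2 genotypes overlapped in each population, and no test was made of the average over members.

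**Figure D2:**
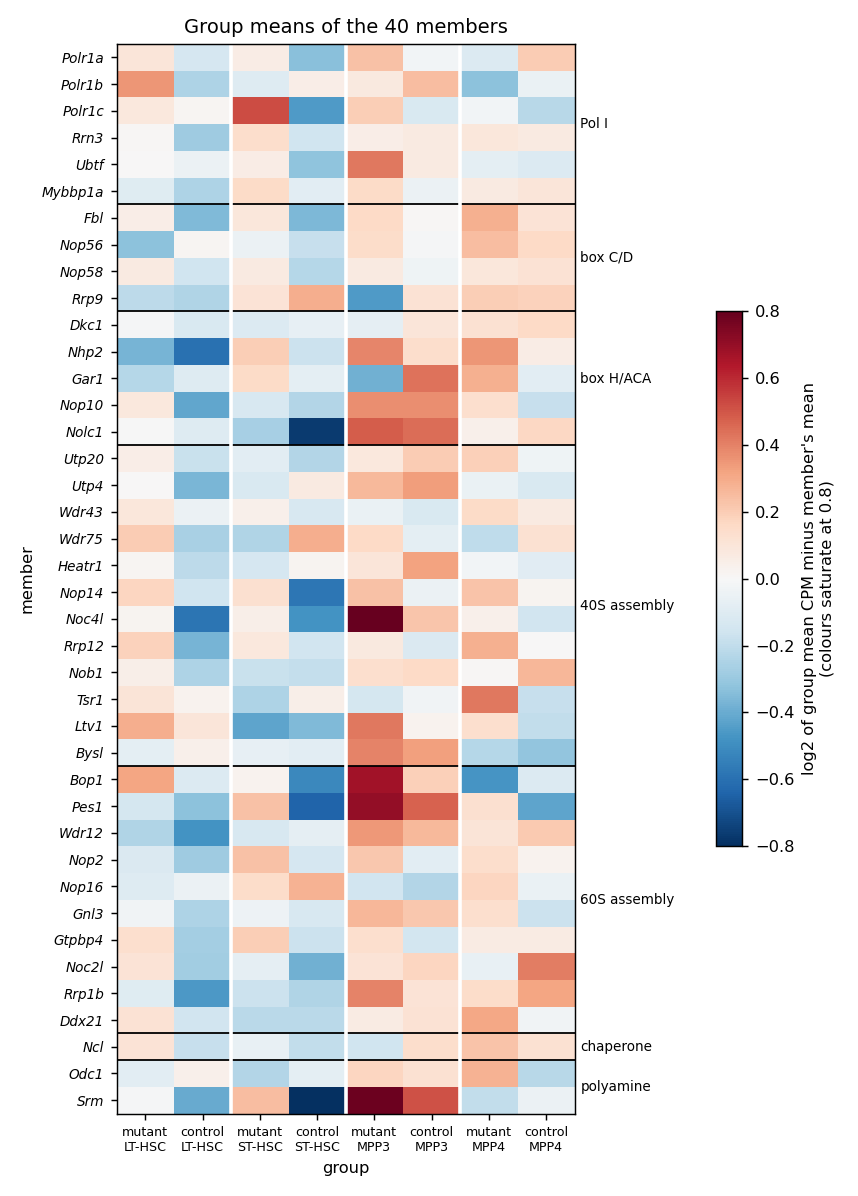
Log2 of each member's group mean CPM minus its mean over the groups, with members ordered by role down the page and the 8 groups across it, mutant left of control in each population. Srm is highest in mutant MPP3 and lowest in control ST-HSC, and most members are below their mean in control LT-HSC and control ST-HSC.

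The first question was whether the genes of ribosome production differ between Dnmt3a-mutant and control cells of the same population. In LT-HSC, 0 members passed an adjusted p of 0.05 in edgeR's quasi-likelihood test (0% of the 13922 genes tested passed), and 0 passed in DESeq2, which called 2.1% of all genes. At an unadjusted p under 0.05 there was 1 member, against 8.16% of all genes. Of the 40 log2 differences, mutant minus control, 35 were above 0, against 50.1% over all genes, and the median was 0.22, against 0.0009 over all genes. All 6 polymerase I genes, 11 of 12 small-subunit and 9 of 10 large-subunit genes had positive differences. So had 3 of 4 box C/D and 4 of 5 box H/ACA genes. Polr1b, which encodes the second-largest subunit of RNA polymerase I, had 43.7, 51.8 and 35.5 CPM in mutant LT-HSC, against 21.5, 26.5, 30.2 and 37.6 CPM in control LT-HSC. A mutant library was the highest, and 1 control library lay above the lowest mutant one. The log2 difference was 0.58 ± 0.26 (SE, adjusted p = 0.601). Nop10, the smallest protein of box H/ACA particles, had 42.4, 57.1 and 55.1 CPM in mutant and 44.4, 32.2, 32.2 and 37.0 CPM in control LT-HSC, a difference of 0.49 ± 0.23 (SE, adjusted p = 0.619). Again the groups overlapped in 1 library pair. Fbl had 67.9, 76.6 and 76.4 CPM in mutant LT-HSC, against 59.95, 60.2, 47.4 and 54.6 CPM in control LT-HSC, with no overlap, and its difference was 0.40 ± 0.20 (SE, adjusted p = 0.645). Groups did not overlap for Fbl and Gnl3 (nucleostemin, a nucleolar GTPase), 2 of 40 members, both higher in the mutant, against 3.87% of all genes, and 0 were lower without overlap, against 3.44%.

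The median difference of the members in LT-HSC was 0.18 to 0.32 when any 1 library was left out. Without the 3 control libraries high in S100a8, which leaves 1 control library, 28 members were above 0 with a median of 0.14, while the median of all genes was 0.07. Within each of the 2 prefixes that the column names carry, whose meaning the labels do not give, the median was 0.20. A prefix holds only 1 or 2 libraries of each group, and 1 of the 2 prefixes has 1 mutant LT-HSC library. Cell cycle genes differed too in direction: 18 of 20 G2 and mitosis genes were lower in mutant LT-HSC, with a summed level of 2140 to 2803 CPM in mutant and 2457 to 5652 CPM in control libraries. The part of mature blood cells and of the cell cycle in the members' values was not tested.

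In ST-HSC, 0 members passed in edgeR (0% of 13381 genes) and 0 in DESeq2 (also 0%), and 2 had an unadjusted p under 0.05, against 3.73% of all genes. Of the 40 differences 29 were above 0, against 50.7% of all genes, and the median was 0.16, against 0.0079. Srm, which encodes spermidine synthase, had 54.99, 87.6, 84.1 and 44.0 CPM in mutant ST-HSC, against 36.2, 32.0 and 24.7 CPM in control ST-HSC. Each mutant library was above each control library, and the log2 difference of 1.12 ± 0.33 (SE, adjusted p = 0.998) was the largest of any member in the 4 populations. Without mutant ST-HSC replicate 2, the library with the Slamf1 signal, it was 0.97. Pes1, a subunit of the PeBoW complex that matures large-subunit RNA, had 28.5, 37.6, 29.7 and 33.6 CPM in mutant and 17.4, 20.2 and 15.4 CPM in control ST-HSC, again without overlap, a difference of 0.87 ± 0.35 (SE, adjusted p = 0.998). Nop14, a small-subunit assembly factor, had 45.0, 49.3, 37.3 and 39.5 CPM in mutant and 32.2, 30.8 and 15.9 CPM in control ST-HSC, a difference of 0.70 ± 0.35 (SE, adjusted p = 0.998). With Bop1, the PeBoW partner of Pes1, and Gtpbp4, a nucleolar GTPase, this made 5 of 40 members whose groups did not overlap, all higher in the mutant, against 2.44% of all genes in that direction. None of the 5 passed the test across all genes. Among ST-HSC libraries, control replicate 3 held the lowest level of Srm, Pes1 and Nop14 alike. When any 1 library was left out, the median of the members was between 0.09 (without mutant ST-HSC replicate 1) and 0.25 (without control ST-HSC replicate 2). It was 0.29 and 0.12 within the 2 prefixes. The 0.29 rests on 1 control library, the same control replicate 3, against 2 mutant ones.

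In MPP3, 0 members passed in edgeR, against 1 of 13572 genes (0.00737%), and 0 passed in DESeq2, against 0.0147%. An unadjusted p under 0.05 was reached by 1 member, against 2.18% of all genes. The differences were above 0 for 26 members, against 51.2% of all genes, with a median of 0.08, against 0.011. Gar1, a structural protein of box H/ACA particles, had 32.5, 29.8, 34.6 and 27.1 CPM in mutant MPP3 and 29.5, 78.3 and 56.3 CPM in control MPP3. The mutant libraries lay close together, and 2 of the 3 control libraries were above them. Its difference was -0.82 ± 0.33 (SE, adjusted p = 1.000). Noc4l, which acts with Nop14 in small-subunit assembly, had 45.5, 59.3, 40.5 and 36.4 CPM in mutant and 20.96, 48.2 and 16.8 CPM in control MPP3, a difference of 0.67 ± 0.38 (SE, adjusted p = 1.000). Ncl had 606, 696, 742 and 786 CPM in mutant and 759, 1085 and 779 CPM in control MPP3, a difference of -0.31 ± 0.18 (SE, adjusted p = 1.000). Both sets overlapped. The groups were apart in 1 member, Rrp9, which binds the snoRNA that guides early cuts of the precursor, and it was lower in the mutant (-0.57), against 2.12% of all genes lower without overlap, while 0 were higher, against 2.32%. Without mutant MPP3 replicate 1, the library with the fewest genes, 19 members were above 0 and the median was -0.0043. The sign of the median thus rested on that library, and within the 2 prefixes the median was 0.11 and 0.05, the latter with 1 control library.

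In MPP4, 0 members passed in edgeR (0% of 13108 genes) and 0 in DESeq2 (0.0381%), and 2 had an unadjusted p under 0.05, against 3.10% of all genes. Positive differences were found for 26 members, against 50.7% of all genes, and the median was 0.09, against 0.0055. Odc1 had 168, 215, 175 and 234 CPM in mutant MPP4, against 129, 146, 165 and 122 CPM in control MPP4. Every mutant library was above every control one, the difference being 0.50 ± 0.18 (SE, adjusted p = 0.999). Tsr1 had 55.6, 39.9, 58.4 and 45.3 CPM in mutant MPP4 and 23.2, 39.5, 39.1 and 29.2 CPM in control MPP4, a difference of 0.61 ± 0.25 (SE, adjusted p = 0.999). These were the 2 members higher without overlap, against 0.999% of all genes, and 0 were lower, against 1.34%. For Tsr1 the gap between the nearest libraries was under 1 CPM. Noc2l, a factor of early large-subunit assembly, had 99.5, 72.9, 164 and 107 CPM in mutant and 163, 144, 121 and 188 CPM in control MPP4, a difference of -0.47 ± 0.23 (SE, adjusted p = 0.999). The median of the members was -0.0078 without control MPP4 replicate 3, so its sign rested on that library, and 0.16 and 0.02 within the 2 prefixes.

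**Figure D3:**
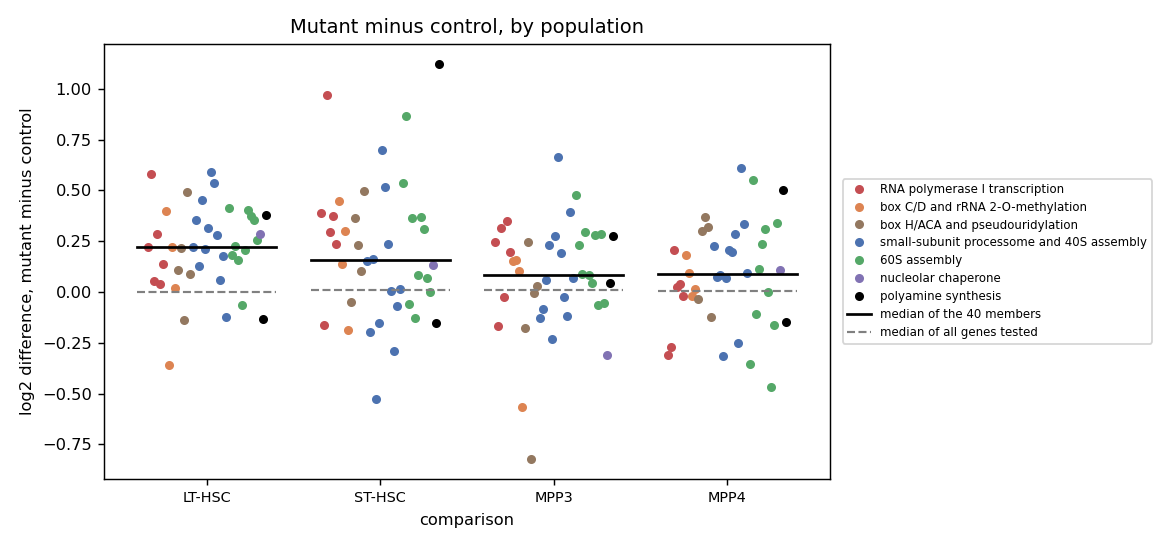
Log2 difference, mutant minus control, of each of the 40 members (points, coloured by role) in the 4 populations, with the median of the members (solid line) and of all genes tested (dashed line). From left to right the members' medians were 0.22, 0.16, 0.08 and 0.09, and no point passed an adjusted p of 0.05.

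Averaged over the 4 populations, the mutant minus control difference was tested with limma voom. No member passed (0 of 40, against 0% of 15915 genes), and 4 had an unadjusted p under 0.05, against 5.81% of all genes. The difference was above 0 for 32 members, against 45.7% of all genes, and the median was 0.12, against -0.03. All 10 large-subunit genes were above 0, with a median of 0.14. So were 8 of 12 small-subunit, 5 of 6 polymerase I, 3 of 4 box C/D and 3 of 5 box H/ACA genes. In the single populations from LT-HSC to MPP4, 9, 8, 8 and 5 of the 10 large-subunit genes were above 0. Roles were not tested as sets. The smallest p belonged to Noc4l, whose mean difference was 0.53 ± 0.19 (SE, adjusted p = 0.778) and whose population values were 0.59 for LT-HSC, 0.52 for ST-HSC, 0.67 for MPP3 and 0.20 for MPP4. The 4 groups of mutant libraries overlapped with their controls in each population. Srm followed with 0.37 ± 0.16 (SE, adjusted p = 0.795), made up of 0.38, 1.12, 0.27 and -0.15 in the 4 populations from LT-HSC to MPP4, and then Fbl with 0.31 ± 0.14 (SE, adjusted p = 0.849). The sign of the Srm value differed in MPP4. In direction, 11 members were higher in the mutant in all 4 populations (Fbl, Gnl3, Nhp2, Noc4l, Nop14, Nop2, Pes1, Polr1c, Rrp12, Ubtf and Wdr43), 16 in 3, 11 in 2, and 2 in 1 (Dkc1 and Polr1b). These counts carry no test. Leaving out any 1 library kept between 28 and 36 members above 0, with a median of 0.09 to 0.15. Without the 3 control LT-HSC libraries high in S100a8, 28 were above 0 with a median of 0.08.

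Whether the mutant difference itself varied between populations was tested in edgeR as an interaction. No member passed (0 of 40, against 0% of 15915 genes), and 0 passed in DESeq2, against 0.302%, while 2 had an unadjusted p under 0.05, against 5.82% of all genes. These were Wdr75, a small-subunit processome protein (adjusted p = 0.830), and Srm (adjusted p = 0.845), followed by Odc1 (adjusted p = 0.869). Wdr75 had 59.3, 53.3 and 41.6 CPM in mutant LT-HSC and 29.04, 39.9, 31.7 and 48.3 CPM in control LT-HSC. In ST-HSC its order was the other way, with 55.7, 25.6, 33.0 and 37.0 CPM in mutant and 41.5, 57.8 and 64.5 CPM in control libraries. Odc1 had 156, 154 and 154 CPM in mutant and 234, 159, 142 and 141 CPM in control LT-HSC. Its separation in MPP4, given above, was thus not seen in LT-HSC, but the difference between the populations did not pass.

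**Figure D4:**
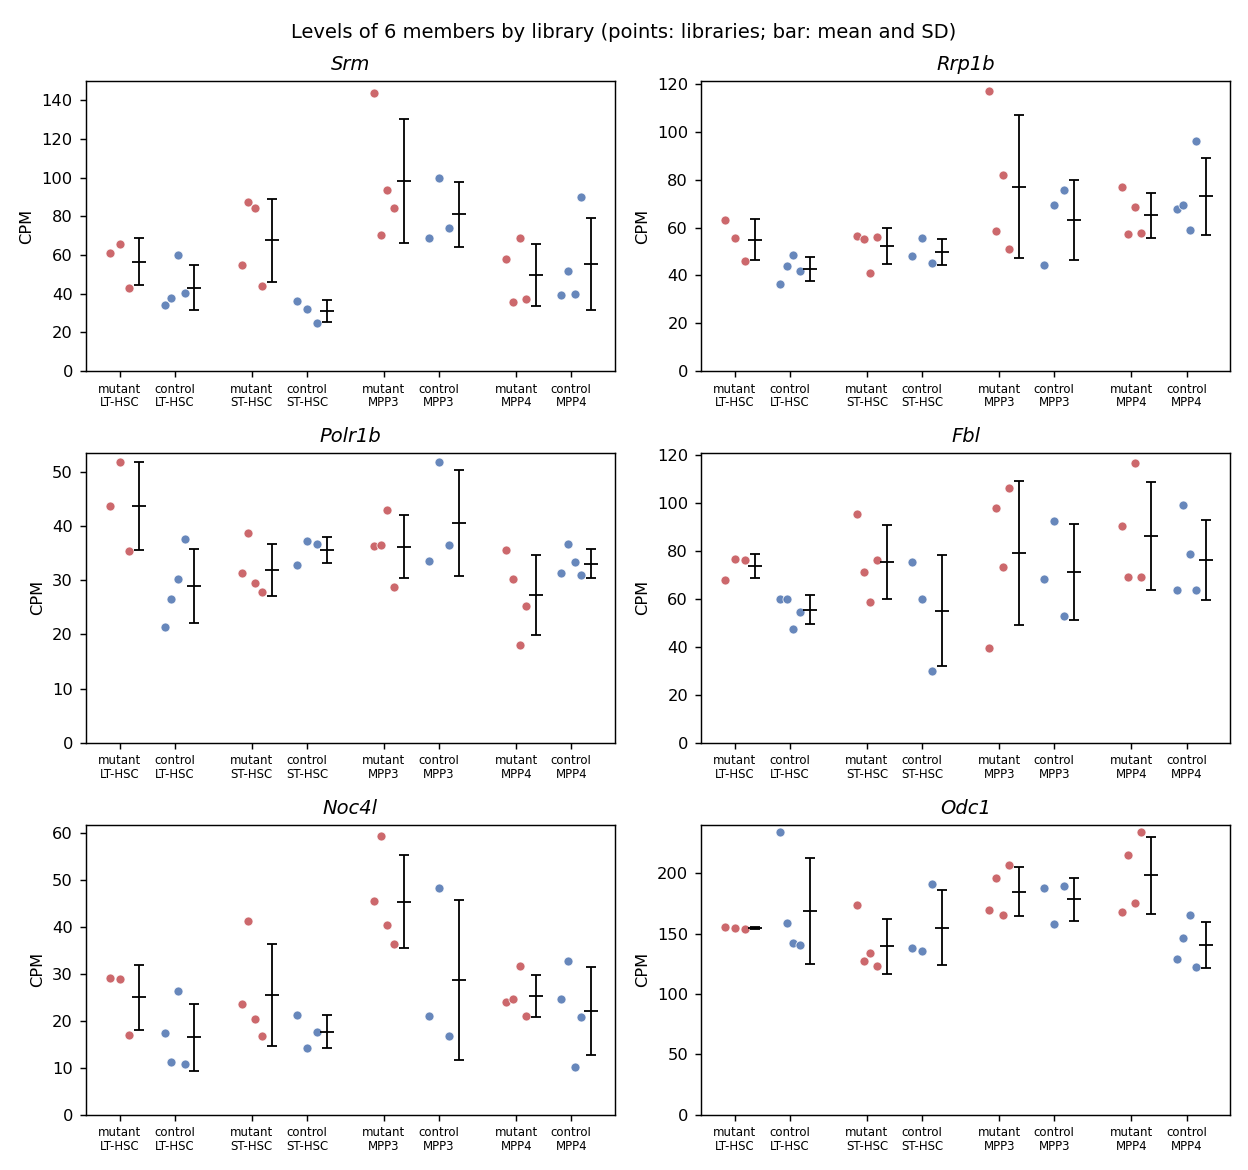
CPM of Srm, Rrp1b, Polr1b, Fbl, Noc4l and Odc1 in each library (points) with the group mean and SD (bars), mutant left of control in each population. Srm is highest in a mutant MPP3 library (144 CPM) and lowest in a control ST-HSC library (24.7 CPM), and Rrp1b is higher in each of the 4 control MPP4 libraries (58.9 to 96.2 CPM) than in the 4 control LT-HSC libraries (36.5 to 48.7 CPM).

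The genes that stand for each role are given next in populations not yet shown, though not in all of them. Dkc1 (dyskerin, the pseudouridine synthase) had 141, 119 and 107 CPM in mutant and 115, 118, 90.4 and 129 CPM in control LT-HSC, and 126, 114, 166 and 128 CPM in mutant and 135, 176, 98.9 and 140 CPM in control MPP4. The genotypes overlapped in both populations. Bysl (bystin, of small-subunit maturation) varied widely between replicates, with 50.6, 53.6 and 21.3 CPM in mutant and 78.4, 33.4, 45.7 and 24.0 CPM in control LT-HSC. Ncl had 834, 989 and 740 CPM in mutant LT-HSC and 849, 651, 620 and 668 CPM in control LT-HSC, an overlap of 1 control library. Bop1 had 16.1, 25.2, 19.9 and 16.5 CPM in mutant ST-HSC and 12.2, 14.6 and 13.2 CPM in control ST-HSC, a difference of 0.54 ± 0.40 (SE), which did not pass.

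The second question was how the members differ between the populations. Among the 4 control populations, 1 of 40 members differed at an adjusted p of 0.05 in edgeR, against 5.72% of 14937 genes, so the members' share was below that of all genes. The member was Srm (ENSMUSG00000006442, chr4:148591503-148594993 on GRCm38, plus strand, adjusted p = 0.0447). It had 33.9, 37.9, 60.2 and 40.1 CPM in control LT-HSC, 36.2, 32.0 and 24.7 CPM in control ST-HSC, 69.0, 99.96 and 73.9 CPM in control MPP3, and 39.5, 51.9, 39.7 and 89.9 CPM in control MPP4. Control MPP3 was highest and lay apart from LT-HSC and ST-HSC, whereas 1 control MPP4 library reached the MPP3 range. The call was marginal, and it was lost with the number in the description as a block. It was lost without control LT-HSC replicate 1 or 2, ST-HSC replicate 2 or 3, any 1 MPP3 library or MPP4 replicate 2 (adjusted p between 0.0543 and 0.148), without the 3 libraries high in S100a8 (0.0727) and without robust shrinkage of the spread (0.0533). At an unadjusted p under 0.05 there were 6 members, against 19.2% of all genes. DESeq2 called 2 of 40 members, Srm and Nolc1, a chaperone of snoRNA particles, against 10.8% of all genes.

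Control MPP3 showed 0 members past the threshold against control LT-HSC in edgeR, against 1.46% of 14937 genes, and DESeq2 also called 0, against 3.74%. The direction was nonetheless uneven: 34 members were higher in control MPP3, against 48.5% of all genes, with a median difference of 0.32, against -0.02, and 7 members had an unadjusted p under 0.05, against 13.1% of all genes. All 5 box H/ACA genes were higher, with a median of 0.56, as were 9 of 10 large-subunit genes, with a median of 0.38. So were 9 of 12 small-subunit, 5 of 6 polymerase I and 3 of 4 box C/D genes. Srm differed by 0.92 ± 0.30 (SE, adjusted p = 0.157). Wdr12, the third PeBoW subunit, had 55.5, 69.4 and 50.6 CPM in control MPP3, against 27.2, 42.2, 42.5 and 28.4 CPM in control LT-HSC, a difference of 0.74 ± 0.26 (SE, adjusted p = 0.200). The groups did not overlap. Nop10 had 50.6, 60.2 and 77.7 CPM in control MPP3, against 44.4, 32.2, 32.2 and 37.0 CPM in control LT-HSC, and differed by 0.79 ± 0.29 (SE, adjusted p = 0.223). With Nolc1 and Heatr1, a small-subunit processome protein, these made 5 of 40 members higher without overlap, against 6.34% of all genes. With any 1 library left out the median was between 0.21 (without control MPP3 replicate 2) and 0.39, and 0.28 and 0.38 within the prefixes. Without the 3 control LT-HSC libraries high in S100a8 it was 0.21, with 30 members higher. In the same comparison 9 of 9 tested genes of antibody-secreting cells were higher in control MPP3 (median 3.35, 8 with an unadjusted p under 0.05), as were 18 of 20 G2 and mitosis genes (median 0.45). Lower in control MPP3 were 12 of 15 neutrophil and 13 of 14 erythroid genes. The part of these genes' cells in the members' values was not tested.

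In control MPP4 against control LT-HSC, 0 members passed in edgeR, against 4.2% of all genes, and 3 had an unadjusted p under 0.05, against 15.5%. Higher levels in MPP4 were found for 32 members, against 49.6% of all genes, with a median of 0.26, against -0.0052. Rrp1b (ENSMUSG00000058392, chr17:32036100-32062865 on GRCm38, plus strand), a nucleolar protein of large-subunit assembly, had 67.9, 69.5, 58.9 and 96.2 CPM in control MPP4, against 36.5, 44.0, 48.7 and 41.7 CPM in control LT-HSC. No library of one group reached the range of the other. Its difference of 0.78 ± 0.22 (SE) had an adjusted p of 0.0511, just short of the threshold, and it passed without robust shrinkage of the spread (0.0496), in DESeq2 (0.0207, where 7.1% of all genes passed), with the header prefix as a term (0.0459) and without control MPP4 replicate 3 (0.0495). Noc2l had 163, 144, 121 and 188 CPM in control MPP4 and 77.7, 63.1, 140 and 101 CPM in control LT-HSC, a difference of 0.69 ± 0.23 (SE, adjusted p = 0.115). It passed when control LT-HSC replicate 3 was left out (adjusted p = 0.0330). That library is the one that overlaps MPP4, so leaving it out widens the difference by itself. A block for the number in the description changed the outcome for Rrp1b and Noc2l, as given at the end. Wdr12 had 42.0, 56.5, 58.9 and 69.1 CPM in control MPP4, with the LT-HSC values above, a difference of 0.69 ± 0.25 (SE, adjusted p = 0.137). Rrp1b, Polr1a (the largest polymerase I subunit) and Fbl, 3 of 40, were higher without overlap, against 4.73% of all genes, and 0 were lower, against 4.98%. The median was 0.15 without control MPP4 replicate 2, and 0.08 and 0.35 within the 2 prefixes. Without the 3 control LT-HSC libraries high in S100a8, it was 0.08, with 24 members higher, while the difference of Rrp1b was 0.80. The MPP3 and MPP4 comparisons share these LT-HSC libraries. The same libraries are the control side of mutant minus control LT-HSC, so the directions in these comparisons are not independent.

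Control ST-HSC and control LT-HSC differed in 0 members in edgeR, against 0.174% of all genes, and in 0 in DESeq2, against 2.06%. Here 23 members were higher in ST-HSC and 17 lower, with a median of 0.03, against 0.02, and 2 had an unadjusted p under 0.05, against 10.1%. Nolc1 had 30.3, 43.1 and 19.7 CPM in control ST-HSC, against 56.7, 40.8, 54.0 and 44.2 CPM in control LT-HSC, a difference of -0.64 ± 0.29 (SE, adjusted p = 0.454). Wdr75 had a difference of 0.56 ± 0.26 (SE, adjusted p = 0.475) from the values given above, and Wdr12 one of 0.42 ± 0.26 (SE, adjusted p = 0.646). Groups were apart for 1 member, Nhp2, a box H/ACA protein, higher in ST-HSC, against 3.55% of all genes. All 20 G2 and mitosis genes were lower in control ST-HSC than in control LT-HSC, whereas the members were split. The sign of the members' median changed without control LT-HSC replicate 2 (-0.02), ST-HSC replicate 1 (-0.02) or ST-HSC replicate 2 (-0.035), and without the 3 LT-HSC libraries high in S100a8 (-0.07). It also differed between the prefixes, at -0.31 and 0.20.

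Between control MPP4 and control MPP3, 0 members passed in edgeR, against 1.14% of all genes, and 0 in DESeq2, against 3.13%, with 1 at an unadjusted p under 0.05, against 11.1%. Of the members, 17 were higher and 23 lower in MPP4, with a median of -0.07, against -0.0048. The sign of the median changed without control MPP3 replicate 2 (0.05) or control MPP4 replicate 1 (0.0027), and it was -0.13 in one prefix and 0.04 in the other. All 4 box C/D genes were higher in MPP4, and 4 of 5 box H/ACA genes were lower. Of other roles, 2 of 6 polymerase I, 5 of 12 small-subunit and 5 of 10 large-subunit genes were higher. Pes1 had 16.7, 29.8, 14.9 and 20.9 CPM in control MPP4 and 31.3, 62.8 and 20.3 CPM in control MPP3, a difference of -0.89 ± 0.36 (SE, adjusted p = 0.326). Nop10 had 49.3, 56.5, 27.2 and 38.4 CPM in control MPP4, and differed by -0.56 ± 0.29 (SE, adjusted p = 0.526). Srm differed by -0.55 ± 0.29 (SE, adjusted p = 0.526). All 3 overlapped between the groups, and 0 of the 40 members were apart in either direction, against 6.23% of all genes higher and 6.37% lower.

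**Figure D5:**
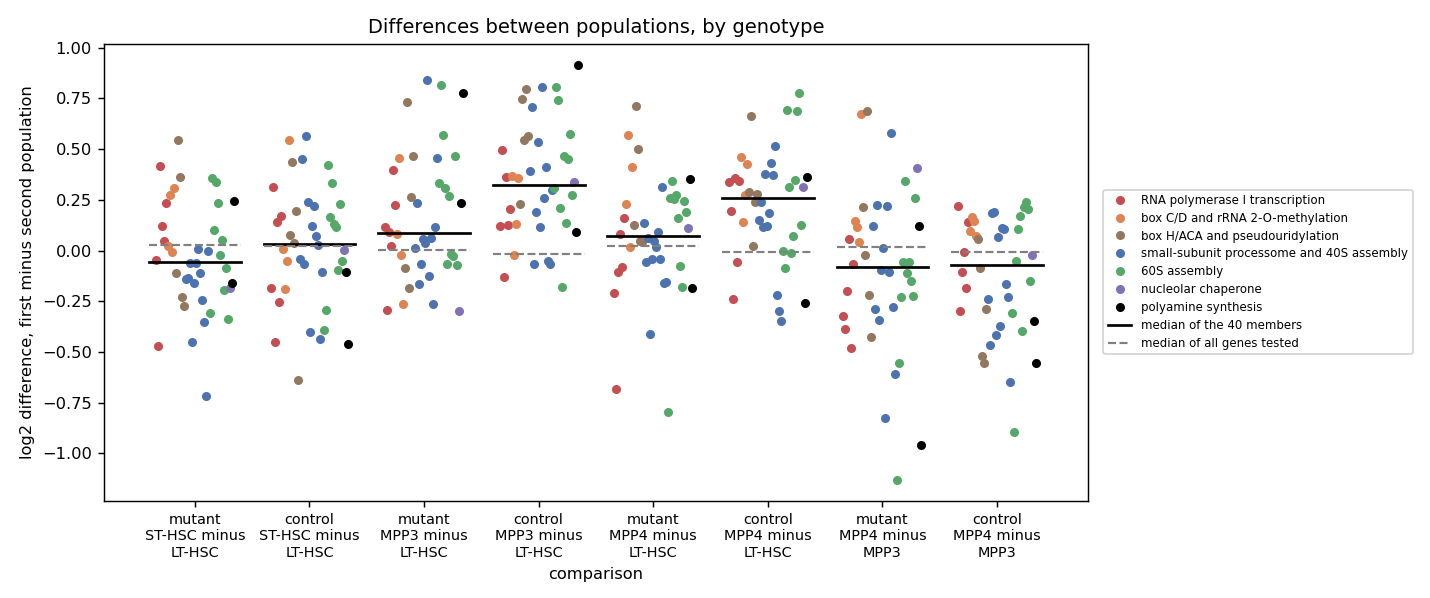
Log2 difference between populations for each of the 40 members (points, coloured by role), mutant left of control for each pair, with the median of the members (solid line) and of all genes tested (dashed line). The members' medians are 0.09 in mutant and 0.32 in control for MPP3 minus LT-HSC, and 0.07 in mutant and 0.26 in control for MPP4 minus LT-HSC.

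Among the 4 mutant populations, 0 members differed in edgeR, against 6.28% of 14766 genes, and 0 in DESeq2, against 10.4%, with 3 at an unadjusted p under 0.05, against 17.8%. These were Srm (adjusted p = 0.165), Noc4l (0.201) and Odc1 (0.209). Srm had 61.3, 65.5 and 42.7 CPM in mutant LT-HSC, 54.99, 87.6, 84.1 and 44.0 CPM in mutant ST-HSC, 144, 70.6, 93.6 and 84.2 CPM in mutant MPP3, and 57.9, 35.8, 68.6 and 37.1 CPM in mutant MPP4. As in the controls, MPP3 held the highest library, and MPP3 was apart from LT-HSC and MPP4 but not from ST-HSC. Noc4l had 29.2, 28.8 and 16.9 CPM in mutant LT-HSC, 23.6, 41.2, 20.4 and 16.7 CPM in mutant ST-HSC, 45.5, 59.3, 40.5 and 36.4 CPM in mutant MPP3, and 24.1, 24.7, 31.6 and 20.97 CPM in mutant MPP4. It passed when mutant ST-HSC replicate 2, the ST-HSC library that reaches the MPP3 range, was left out (adjusted p = 0.0490).

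In mutant MPP3 against mutant LT-HSC, 0 members passed in edgeR, against 3.09% of all genes, and 0 in DESeq2, against 5.92%. There were 26 members higher in MPP3, against 50.3% of all genes, and the median was 0.09, against 0.0045, with 3 at an unadjusted p under 0.05, against 14.1%. With 1 library left out, the median was between 0.04 (without mutant MPP3 replicate 1) and 0.22 (without mutant LT-HSC replicate 2), and it was 0.07 and 0.25 within the prefixes. Noc4l differed by 0.84 ± 0.34 (SE, adjusted p = 0.249), Srm by 0.77 ± 0.32 (SE, adjusted p = 0.254) and Nop56 by 0.46 ± 0.20 (SE, adjusted p = 0.301). Nop56 had 258, 365, 299 and 372 CPM in mutant MPP3 and 210, 222 and 263 CPM in mutant LT-HSC, overlapping in 1 library pair. Noc4l, Wdr12, Gnl3, Odc1 and Srm, 5 of 40, were higher without overlap, against 7.84% of all genes. Whether the members' MPP3 minus LT-HSC difference varied between the genotypes was tested gene by gene as part of the interaction above, in which none passed. All 20 G2 and mitosis genes (median 0.74) and 9 of 9 tested genes of antibody-secreting cells (median 5.56) were higher in mutant MPP3, and their part in the members' values was not tested.

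In mutant MPP4 against mutant LT-HSC, 0 members passed in edgeR, against 2.17% of all genes, and 0 in DESeq2, against 3.91%. There were 26 higher in MPP4, against 52.0%, with a median of 0.07, against 0.02. At an unadjusted p under 0.05 there were 2, against 10.4%. Nop56 had 290, 425, 303 and 365 CPM in mutant MPP4, each above the 3 mutant LT-HSC libraries, a difference of 0.57 ± 0.20 (SE, adjusted p = 0.214). Polr1b had 35.5, 30.3, 18.1 and 25.3 CPM in mutant MPP4, and differed from LT-HSC by -0.68 ± 0.29 (SE, adjusted p = 0.373). Odc1 differed by 0.35 ± 0.18 (SE, adjusted p = 0.547). Higher without overlap were Nop56 and Odc1, 2 of 40, against 6.43% of all genes, and lower was Bop1, 1 of 40, against 7.31%. The members' median was below 0 without mutant LT-HSC replicate 3 (-0.0088) or mutant MPP4 replicate 3 (-0.04), and 0.03 and 0.15 within the prefixes.

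Mutant MPP4 against mutant MPP3 gave 0 members in edgeR, against 1.37% of all genes, and 1 in DESeq2, Srm (adjusted p = 0.0384), against 3.25%. Here 16 members were higher and 24 lower in MPP4, with a median of -0.08, against 0.02, and 3 had an unadjusted p under 0.05, against 11.5%. Srm differed by -0.96 ± 0.29 (SE, adjusted p = 0.142), Bop1 by -1.13 ± 0.40 (SE, adjusted p = 0.229) and Noc4l by -0.82 ± 0.31 (SE, adjusted p = 0.274). Bop1 had 15.9, 11.7, 16.5 and 10.9 CPM in mutant MPP4, against 61.8, 25.1, 19.2 and 15.6 CPM in mutant MPP3. The highest of these was mutant MPP3 replicate 1, and without that library the members' median was 0.02, so its sign rested on it. Within the prefixes the median was -0.02 and -0.12. Of the members, 2 were lower without overlap (Noc4l and Srm), against 4.25% of all genes, and 1 was higher (Tsr1), against 3.17%.

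Mutant ST-HSC against mutant LT-HSC gave 0 members in edgeR, against 0.298% of all genes, and 0 in DESeq2, against 1.22%. The members were 16 higher and 24 lower, with a median of -0.06, against 0.03, and 1 had an unadjusted p under 0.05, against 7.94%. Of the 12 small-subunit genes, 1 was higher. So were 5 of 10 large-subunit, 4 of 6 polymerase I, 3 of 4 box C/D and 2 of 5 box H/ACA genes. Ltv1, an export factor of the small subunit, had 29.6, 11.7, 25.0 and 18.5 CPM in mutant ST-HSC, against 29.4, 33.3 and 41.2 CPM in mutant LT-HSC, a difference of -0.72 ± 0.34 (SE, adjusted p = 0.618). Polr1b had 31.4, 38.7, 29.5 and 27.9 CPM in mutant ST-HSC and differed by -0.47 ± 0.29 (SE, adjusted p = 0.736), and Wdr75 differed by -0.45 ± 0.28 (SE, adjusted p = 0.741). The overlap between the groups was of 1 library or more in each. The sign of the median changed without mutant LT-HSC replicate 2 (0.04) or mutant ST-HSC replicate 4 (0.02), and it differed between the prefixes, at -0.21 and 0.19.

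A further list of 95 genes of ribosome biogenesis that are not among the 40 gave 94 with a value, and Riok2 was not analysed here. In edgeR, 0 of the 94 passed in each comparison, where 0% to 6.28% of all genes passed. In mutant minus control, 56, 58, 57 and 57 of the 94 were above 0 in the 4 populations from LT-HSC to MPP4. The shares of all genes above 0 were 50.1%, 50.7%, 51.2% and 50.7%. The medians of the 94 were 0.07, 0.12, 0.05 and 0.08. The 40 members had a larger median than these in LT-HSC, and values near theirs in the other populations. In control cells, 69 of the 94 were higher in MPP3 than in LT-HSC, against 48.5% of all genes, with a median of 0.16. In control MPP4 59 were higher, against 49.6% of all genes, with a median of 0.18. In mutant cells the counts were 60 in MPP3, against 50.3% of all genes, with a median of 0.14, and 67 in MPP4, against 52.0%, with a median of 0.13. DESeq2 called 1 of the 94 in control MPP3 minus LT-HSC, Rsl24d1, a large-subunit maturation factor, against 3.74% of all genes. In control MPP4 minus LT-HSC it called 1, Rrp7a, against 7.1% of all genes.

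The Myc gene itself had 225, 374 and 239 CPM in mutant LT-HSC and 186, 158, 272 and 218 CPM in control LT-HSC, and 274, 408, 384 and 382 CPM in mutant ST-HSC and 227, 274 and 264 CPM in control ST-HSC. In both populations the highest library was a mutant one, and the groups overlapped in LT-HSC and by a margin of under 1 CPM did not in ST-HSC. In MPP3, Myc had 333, 313, 412 and 382 CPM in mutant and 239, 458 and 329 CPM in control libraries. In MPP4 it had 294, 294, 500.1 and 289 CPM in mutant and 355, 375, 293 and 570 CPM in control libraries. There the highest library was a control one in both populations, and the groups overlapped. Mycn, its relative, had 70.6, 86.0 and 61.1 CPM in mutant LT-HSC and 37.2, 30.9, 62.1 and 51.4 CPM in control LT-HSC, and was under 20 CPM in each MPP3 library. Of the 9 members with CACGTG in the promoter window, 9, 6, 5 and 8 were higher in the mutant in the 4 populations from LT-HSC to MPP4, with medians of 0.18, 0.16, 0.06 and 0.12. Of the 27 without it, 22, 19, 17 and 16 were higher, with medians of 0.22, 0.11, 0.07 and 0.07. Their order was not the same in the 4 populations, and the 2 sets were not tested against each other.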

How the data were processed

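Values were the deposited expected counts per gene, whole numbers for 38924 Ensembl identifiers in 29 libraries, of which 37607 matched the GENCODE M21 annotation of GRCm38 by identifier. The authors used edgeR 3.5.3, SAMtools 0.1.18, Bowtie2 2.2.0 and RSEM 1.2.12 on GRCm38, per the submitters' processing notes, which give no role or order. RSEM shares ambiguous reads between similar genes, which makes genes with processed pseudogenes, such as Gtpbp4, less certain.

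Groups came from titles and descriptions. The design text counts 3 mutant MPP3 libraries and the sample list 4, and all were used. Titles of mutant ST-HSC libraries lack the abbreviation for mutant, and their genotype also came from the letter in the description. Replicates of a group differed by more than counting noise.

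In R 4.3.3, edgeR 4.0.16 scaled libraries (TMM), kept genes by filterByExpr (minimum count 10, total 15) and fitted a quasi-likelihood model per comparison over its own groups, or all groups of a genotype for populations. P-values were Benjamini-Hochberg adjusted over all genes tested, with a threshold of 0.05. The mean mutant difference used limma 3.58.1 (voom) with a random block for the number that each description holds. DESeq2 1.42.0 was an alternative. Log2 CPM used a prior count of 2, and levels per kilobase the longest principal transcript. The fit plan did not state robust shrinkage of the spread. It was adopted after results with and without it had been seen. The code was tested on simulated data.

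The members and all gene lists were chosen with earlier results of these data known. Values by library are given for members past the threshold, otherwise for the 3 with the smallest p per comparison. They are also given for 1 gene per role (Polr1b, Fbl, Dkc1, Bysl, Bop1, Ncl and Odc1). Not every group is shown for each of these genes.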

Additional observations from a re-analysis of the deposited data

Results flagged for a closer look

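In groups of 4 libraries, 1 library was set well apart from the other 3 for 5 of the members named above. Its gap to the nearest of the others, as a share of the group's whole range, passed Dixon's 95% critical value for 4 samples. Over the 21 named members, 5 of 105 such groups (4.76%) did so, and chance gives about 1 in 20. Pes1 had 94.08 CPM in mutant MPP3 replicate 1, against 26.4 to 31.0 CPM in the other 3 libraries. Bysl had 69.2 CPM in mutant MPP4 replicate 3, against 25.0 to 30.4 CPM in the others. Ncl had 546.4 CPM in mutant ST-HSC replicate 2, against 825 to 834 CPM, and Rrp1b had 40.87 CPM in mutant ST-HSC replicate 3, against 55.1 to 56.7 CPM. Nop56 had 346.1 CPM in control MPP4 replicate 1, against 317 to 319 CPM in the other 3 libraries. For Nop56 the whole range of the group was thus small. The libraries of the Pes1 and Ncl values are the 2 with the fewest genes counted.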

How the results depend on the processing

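Of the counts of calls and the medians, 507 values under other settings stayed within 1.5 times (counts) or 1 SD between replicates (medians) and 22 moved beyond that. Of 223 recomputed medians, 15 had the opposite sign, in 7 of the 13 comparisons with a median, and those values stand with their comparisons above apart from 0.01 for mutant MPP4 minus MPP3 without both mutant libraries with the fewest genes. The number of members differing among control populations was 1, where the main fit called 5.72% of all genes and DESeq2 10.8%. It was 2 in DESeq2, 0 with a replicate block, 0 without robust shrinkage, 0 with the header prefix as a term, 0 without the 3 control LT-HSC libraries high in S100a8, and 0 to 2 when each library was left out. For control MPP4 minus LT-HSC the number was 0, where 4.2% of all genes passed, against 1 in DESeq2, where 7.1% passed. The number was 2 with a replicate block, 1 without robust shrinkage, 1 with the prefix as a term and 0 to 1 with each library left out. The median of 0.26 in this comparison was 0.0829 without the S100a8-high libraries, which leaves 1 LT-HSC library whose spread is taken to equal that of the other groups. The number among mutant populations was 0, where 6.28% of all genes passed, and 0 to 1 with each library left out. That for mutant MPP4 minus MPP3 was 0, where 1.37% of all genes passed, against 1 in DESeq2, where 3.25% passed. The cause was not tested.

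Replicate numbers in the titles showed no pairing of mutant with control libraries. Of 13 mutant and control pairs with the same number in the title, 0 had a correlation over 0.1, and 6 of 26 libraries correlated best with their own number. No description number occurs in both genotypes, so this check does not bear on it. Of 39 pairs across populations with the same number in the description, 6 had a correlation over 0.1 (-0.152 to 0.175). Pairs with different numbers were not set beside them. In the voom fit, the correlation between libraries with one number, estimated over all genes, was -0.000528. The random block thus carried almost no weight there, and whether libraries with one number share an origin stays undecided. With a block for the number in the description, Srm among control populations had an adjusted p of 0.0768, and Noc2l and Rrp1b in control MPP4 minus LT-HSC had 0.0423 and 0.0481. Over all genes, mutant minus control LT-HSC gave 0 calls, against 292 in DESeq2 and 398 with a block for the replicate number in the title, 0 of them members.

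With 3 or 4 libraries a group, the median SE of a member's log2 difference was 0.25 to 0.33 in mutant minus control, so differences of that size could not be told from the spread. Much larger ones did not pass either. Srm in ST-HSC, at 1.12 ± 0.33 (SE), had an adjusted p of 0.998 in edgeR. Scaling by DESeq2's size factors gave a member median of 0.22 in LT-HSC.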
